A study of Mus musculus with 40 samples.

Results

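The genes described here are the 4 PDGF ligands, *Pdgfa*, *Pdgfb*, *Pdgfc* and *Pdgfd*, and 6 receptor tyrosine kinases, *Pdgfrb*, *Egfr*, *Kit*, *Kdr*, *Met* and *Ntrk2*. They are 10 of the 55536 genes in the annotation and were read through the histone marks at their promoters. The choice was by name, for their place in glioma receptor signalling, but with earlier results of these data known. A promoter was the stretch from 2000 bp upstream to 1000 bp downstream of an annotated transcript start in mm10, and a gene with several starts has several such windows. The mice carried an *H3-3a* knock-in allele for H3.3 K27M that is switched on by Cre from a *GFAP* promoter transgene, which acts in neural stem and progenitor cells and everything that descends from them. Oligodendrocyte progenitor cells (OPCs) were panned with an antibody against PDGFRa from K27M and control pups at P5 to P7, pooled by region and genotype, and grown without differentiation in medium that contained 20 ng/ml PDGF and 1 ng/ml neurotrophin-3. Control is the only genotype that the labels give for the other arm, and the study calls these mice littermates. ChIP-seq for H3K27me3 and for H3K4me3 was available from 2 control and 2 K27M brainstem cultures (numbers 59 and 61) and from 3 control and 3 K27M telencephalon cultures (59, 60 and 61, labelled cortex), which form 5 matched pairs with 1 library per mark and culture. Brains of a litter were divided by region before pooling, so brainstem and telencephalon cultures of the same number may come from the same pups, and the 5 pairs may rest on 3 sets of animals. Whether cultures of different number came from separate litters is not given in the labels either, so the p-values measure the spread between these cultures.

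PDGF ligands are secreted dimers. The A and C chains act mainly through PDGFRa, the receptor that marks OPCs, while the B and D chains also act through PDGFRb, the receptor of pericytes and other mural cells. EGFR, KIT, KDR (the main VEGF receptor of endothelium), MET (the HGF receptor) and NTRK2 (the BDNF receptor TrkB) are receptor kinases of other cell lineages or stages, and several of them are amplified or mutated in glioma. H3K4me3 marks promoters that are active or poised, H3K27me3 is written by Polycomb repressive complex 2, and a promoter with both is called bivalent. The K27M form of histone H3 inhibits that complex.

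The promoters of 5 genes are shown, chosen among those with a sequence entry to cover different patterns. They are *Kdr* and *Met*, with H3K27me3 in most libraries of both genotypes, *Pdgfa* and *Egfr*, with H3K27me3 mainly in controls, and *Ntrk2*, with almost none. Each sequence runs from 250 bases before to 50 bases after a RefSeq start in GRCm38.p6, 5′ to 3′ on the gene's strand, and capitals mark CpG dinucleotides, the letters CG, which read the same on both strands. The table that holds them lists 8 of the 10 genes, without *Pdgfb* and *Pdgfrb*, so the patterns of those genes are not represented. In order, the windows are chr5:138994895-138995194 on the minus strand, chr11:16751953-16752252 on the plus strand, chr5:75978406-75978705 on the minus strand, chr6:17463707-17464006 on the plus strand and chr13:58806319-58806618 on the plus strand.
Pdgfa: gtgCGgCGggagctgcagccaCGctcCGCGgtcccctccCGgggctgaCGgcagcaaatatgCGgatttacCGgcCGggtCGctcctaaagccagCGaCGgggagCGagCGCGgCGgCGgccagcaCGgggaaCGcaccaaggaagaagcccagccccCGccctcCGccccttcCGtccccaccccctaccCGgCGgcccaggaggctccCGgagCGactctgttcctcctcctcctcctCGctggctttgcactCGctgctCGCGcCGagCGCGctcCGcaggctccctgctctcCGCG
Egfr: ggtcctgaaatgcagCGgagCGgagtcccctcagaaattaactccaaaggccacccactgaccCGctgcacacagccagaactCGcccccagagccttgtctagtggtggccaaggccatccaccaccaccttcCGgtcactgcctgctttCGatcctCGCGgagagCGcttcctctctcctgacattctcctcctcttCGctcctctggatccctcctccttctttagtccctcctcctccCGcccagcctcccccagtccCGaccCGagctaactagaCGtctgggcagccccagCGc
Kdr: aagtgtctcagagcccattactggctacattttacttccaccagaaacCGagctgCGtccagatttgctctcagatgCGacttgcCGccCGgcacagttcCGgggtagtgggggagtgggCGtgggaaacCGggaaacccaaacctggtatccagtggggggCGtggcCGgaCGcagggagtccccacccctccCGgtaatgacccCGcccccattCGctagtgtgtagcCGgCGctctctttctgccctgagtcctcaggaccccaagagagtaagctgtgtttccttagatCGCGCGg
Met: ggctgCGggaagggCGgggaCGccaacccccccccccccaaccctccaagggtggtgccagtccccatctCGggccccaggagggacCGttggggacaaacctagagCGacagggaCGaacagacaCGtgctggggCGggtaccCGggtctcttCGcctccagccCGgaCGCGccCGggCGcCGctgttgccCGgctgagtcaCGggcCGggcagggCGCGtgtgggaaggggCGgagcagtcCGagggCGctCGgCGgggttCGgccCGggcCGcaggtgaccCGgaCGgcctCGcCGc
Ntrk2: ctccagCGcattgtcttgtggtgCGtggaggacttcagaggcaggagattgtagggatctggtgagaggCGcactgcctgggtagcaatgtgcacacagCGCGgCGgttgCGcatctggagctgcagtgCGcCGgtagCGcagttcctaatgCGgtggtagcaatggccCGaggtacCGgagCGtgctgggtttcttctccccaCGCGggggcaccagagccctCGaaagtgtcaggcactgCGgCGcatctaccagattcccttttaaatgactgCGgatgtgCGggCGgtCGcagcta
The *Pdgfa* stretch holds 37 CpG, a number that 5.59% of 32817 distinct promoters of the same length reach. *Met* holds 34 (7.73%), *Ntrk2* 23 (21.5%), *Kdr* 19 (28.0%) and *Egfr* 15 (34.6%), against a median of 7. All 5 stretches were overlapped by an H3K4me3 peak in 5 of 5 control and 5 of 5 K27M cultures. An H3K27me3 peak overlapped the *Egfr* stretch in 3 control and 0 K27M cultures, the *Kdr* stretch in 3 and 1, the *Met* stretch in 3 and 2, and the *Pdgfa* and *Ntrk2* stretches in none. The *Pdgfa* stretch lies inside the gene's block of windows, at a start downstream of its most upstream annotated one, and the H3K27me3 of the controls lay mostly upstream of both.

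Over whole promoter windows of 3000 bp the 10 genes differed widely in CpG. The richest window of *Pdgfa* held 272 CpG and that of *Pdgfb* 243, numbers reached by 0.159% and 0.440% of 55413 genes. *Ntrk2* held 182, *Kit* 141, *Pdgfc* 132, *Kdr* 116, *Met* 114 and *Egfr* 109. *Pdgfrb* held 58 and *Pdgfd* 49, still above the median of 36 over all genes. CpG content did not order the genes by H3K27me3: *Ntrk2*, with 182, had an H3K27me3 peak in 1 control culture, and *Pdgfrb*, with 58, had one in 4.

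The libraries themselves differed before any gene was considered. H3K27me3 lists held 12715 to 64808 peaks in controls and 4739 to 15753 in K27M, with fewer in K27M in 5 of 5 pairs, while H3K4me3 lists held 20961 to 31200. Telencephalon control 59 and its K27M partner had the lowest H3K4me3 median folds (3.57 and 4.98, against up to 13.8) and the fewest H3K27me3 peaks of their genotypes. By the study's own read totals, their H3K27me3 libraries had the most reads of that mark, so few peaks did not mean few reads. A peak list holds no reads outside peaks, so the sequencing depth behind each value cannot be read from it and a promoter without a peak may hold signal below the threshold. The OPC markers *Olig1*, *Olig2*, *Sox10*, *Pdgfra*, *Cspg4*, *Ptprz1* and *Gpr17* all carried H3K4me3 in all 10 libraries and H3K27me3 in none, as a check of the labelled cell type. Of 6 endothelial markers, *Pecam1*, *Cdh5*, *Tek* and *Tie1* carried neither mark in any library, *Flt1* carried both marks in all 10 and *Cldn5* carried H3K27me3 in all 10. Of 6 microglial markers, 5 had no H3K4me3 peak in any library and the sixth, *P2ry12*, had one in 8. Of 5 pericyte markers, *Kcnj8*, *Abcc9* and *Vtn* carried H3K4me3 in all 10 libraries, *Anpep* in 6 and *Rgs5* in none. All 5 had H3K27me3 in some library, with a median K27M minus control difference of −23.2 percentage points of the promoter, and the part of such cells in the *Pdgfrb* values was not tested. All 5 astrocyte and all 5 neuron markers had H3K4me3 in some library, and 1 astrocyte and 4 neuron markers had it in all 10. H3K27me3 was called in some library at 3 astrocyte and all 5 neuron markers, and in all 10 at 1 and 2 of them. In pooled cultures, a mark in a fraction of the cells and a weaker mark in all of them cannot be told apart.

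H3K4me3 was called at the promoters of 9 of the 10 genes in every library. Of all genes, 28.7% had a promoter H3K4me3 peak in all 10 libraries. Shares of all genes, here and below, also count genes that are not protein-coding, whereas the 10 genes are protein-coding. Among protein-coding genes, 58.6% to 64.9% had a promoter H3K4me3 peak in a single library. The exception among the 10 genes was *Pdgfrb*, with H3K4me3 over 898 bp in telencephalon control 60 and 558 bp in telencephalon control 61 and in no other library. By the study's read table, these 2 libraries had the largest shares of duplicate reads for that mark. The part of duplicates in these calls was not tested. H3K27me3 was far less even. In controls it was called at 9 and 5 of the 10 genes in brainstem cultures 59 and 61, and at 4, 7 and 9 in telencephalon cultures 59, 60 and 61. In the matched K27M cultures it was called at 2, 3, 2, 3 and 5, so that each K27M culture had 2 to 7 fewer genes with a peak than its control (mean difference −3.8 ± 2.05, SD, n = 5 pairs). Over all genes the share with a promoter H3K27me3 peak was likewise lower in each K27M culture, at 5.78%, 6.86%, 3.75%, 7.41% and 5.90% against 18.3%, 10.4%, 6.12%, 16.4% and 20.2% in the controls. Among protein-coding genes the share was 6.39% to 12.2% in K27M and 9.96% to 30.0% in controls. All 10 genes had at least 1 control culture with a peak, as did 14107 of all 55536 genes. Of the 10 genes, 9, all but *Pdgfb*, had a peak in fewer K27M than control cultures. That is set beside 80.6% of the 14153 genes with a promoter H3K27me3 peak anywhere, so most marked genes showed the same direction.

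**Figure D1:**
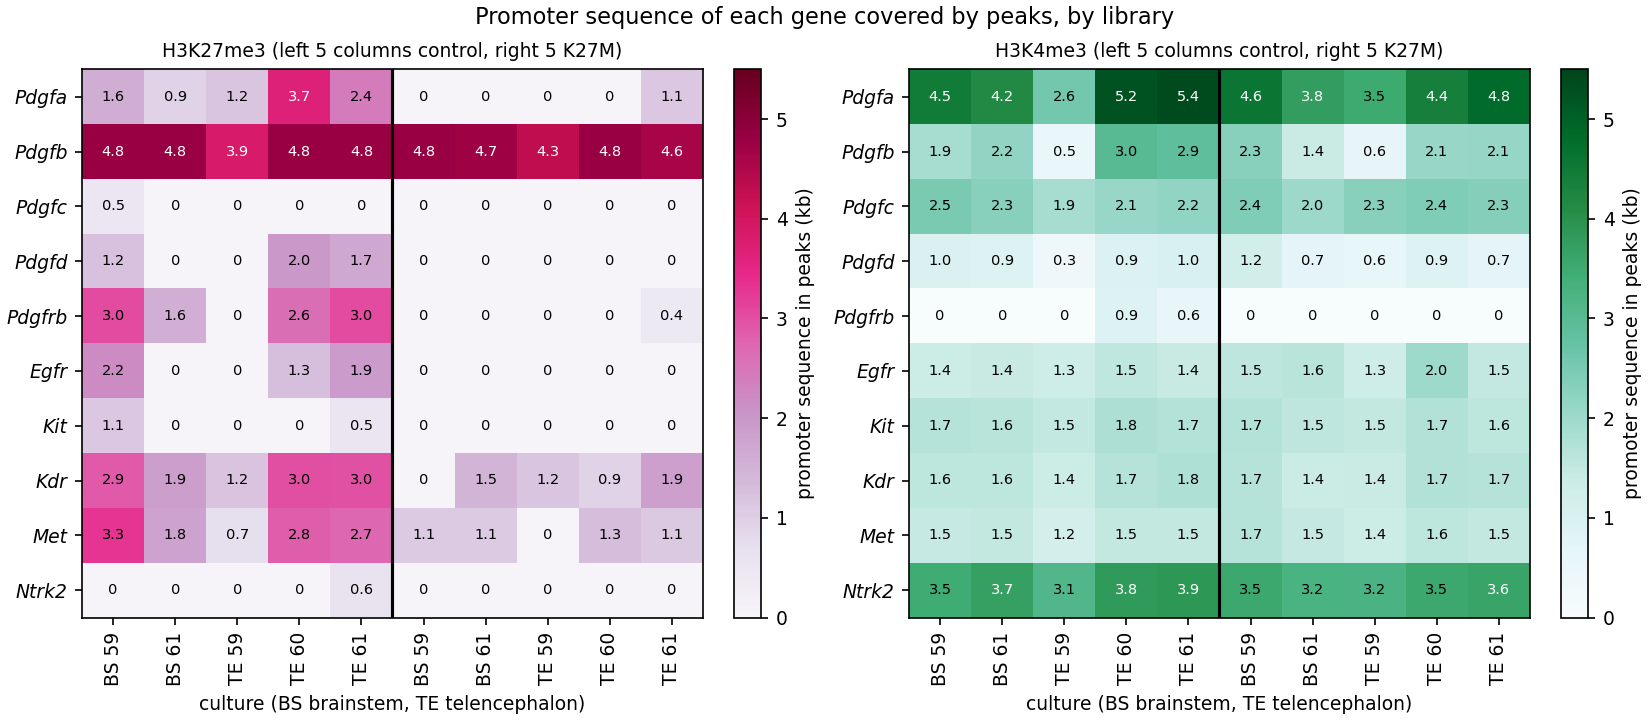
Promoter sequence of each gene, in kb, that lay in H3K27me3 peaks (left) and H3K4me3 peaks (right), for each of the 10 cultures per mark. Columns left of the black line are controls and columns right of it K27M, BS is brainstem and TE telencephalon. *Pdgfb* is covered over 3.9 to 4.8 kb by H3K27me3 in every column, while *Pdgfc*, *Pdgfd*, *Egfr*, *Kit* and *Ntrk2* are at 0 in all 5 K27M columns and the 4 other genes in 1 to 4 of them, and H3K4me3 is at 0 only for *Pdgfrb*.

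**Figure D2:**
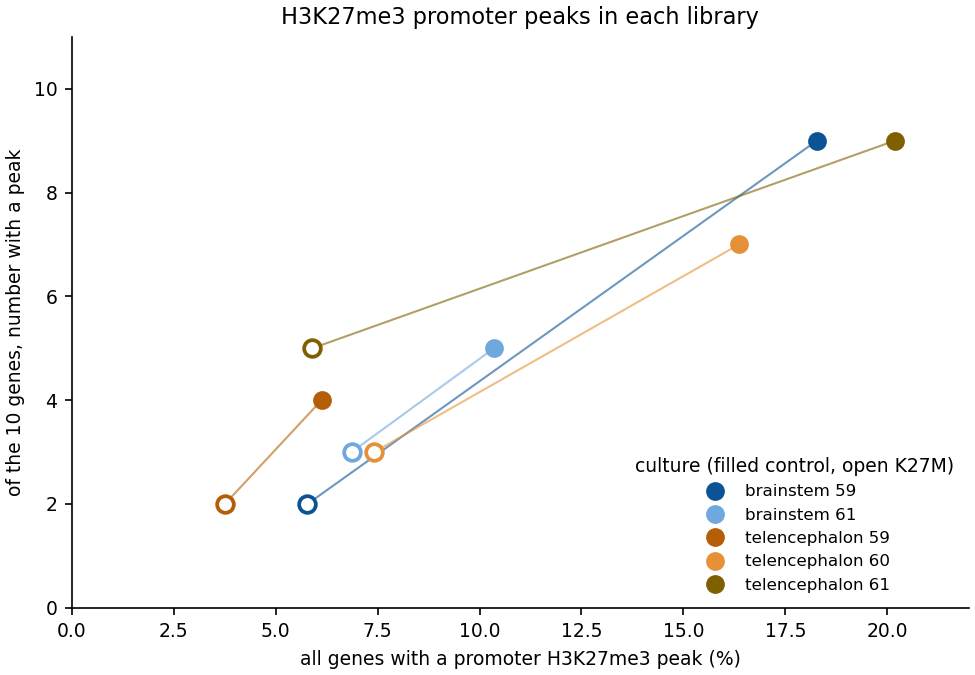
Number of the 10 genes with a promoter H3K27me3 peak (vertical axis) against the share of all genes with one (horizontal axis, %), for each culture, with filled points for controls, open points for K27M and a line joining each pair. Every line runs down and to the left, from 4 to 9 genes in controls to 2 to 5 in K27M, so the 10 genes and all genes moved in the same direction in 5 of 5 pairs.

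The number of peaks per library differed with genotype in the same direction. When every H3K27me3 library was limited to its 4739 best peaks by −log10 p, the number in the shortest list, the control and K27M numbers were 5 and 2, 2 and 2, 4 and 2, 4 and 2, and 5 and 4 in the order above, a mean difference of −1.6. The share of all genes with such a peak was also lower in K27M in each pair. It was 5.00%, 5.10%, 3.75%, 5.29% and 4.97% against 7.27%, 5.48%, 4.36%, 7.09% and 7.43% in the controls. With equal numbers of peaks *Pdgfb* was marked in all 10 libraries, *Pdgfa* in 4 control cultures and 1 K27M culture, and *Egfr* in 2 control cultures and none of K27M. *Pdgfc*, *Pdgfd*, *Pdgfrb*, *Kit* and *Ntrk2* were marked in none.

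Among the ligands, *Pdgfb* stood apart. Its promoter (chr15:80012204-80016977, 4774 bp over 3 windows, which it shares with the gene *Gm41361*) was covered by H3K27me3 over 4774 bp in 4 of 5 control cultures and 3861 bp in telencephalon control 59. In K27M the covered lengths were 4774 and 4713 bp in brainstem cultures 59 and 61, and 4309, 4774 and 4618 bp in telencephalon cultures 59, 60 and 61. The groups overlapped, and the mean difference was 0.97 ± 4.89 percentage points of the promoter (SD, n = 5 pairs, exact sign-flip p = 1). With a fold of at least 3 it was 17.1 points, since the peak of telencephalon control 59, at 2.30, did not reach that fold. Over all genes tested the median difference was −9.01 points. A promoter H3K27me3 peak in all 10 libraries was found at 3.28% of all genes. H3K4me3 lay within it, over 483 to 2988 bp, and in every library 100% of the *Pdgfb* bases in H3K4me3 peaks were also in an H3K27me3 peak. Over all genes with both marks the median of that share was 7.66% to 83.6% by library.

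The H3K27me3 domain around *Pdgfb* was longer in controls than in K27M in 4 of 5 pairs. The peak over the promoter was 15943 and 6478 bp long in brainstem controls 59 and 61, and 4015, 8105 and 18748 bp in telencephalon controls 59, 60 and 61. In K27M it was 6047, 5806, 4413, 6046 and 5966 bp in the same order, a narrow range apart from telencephalon culture 59. Of the gene body, 88.6% was in H3K27me3 peaks in brainstem control 59, 84.7% in telencephalon control 61 and 55.7% in telencephalon control 60, while the remaining 7 libraries had between 15.1% and 21.6%. The fold enrichment over input showed the opposite direction, at 16.0 against 6.53, 18.8 against 6.92, 4.40 against 2.30, 18.2 against 16.2 and 13.7 against 6.47 in K27M and control of each pair. The median fold over all promoter H3K27me3 peaks was also higher in K27M in 5 of 5 pairs. Ranked among the promoter peaks of its own library, the *Pdgfb* peak stood at the 96.1, 96.1, 32.1, 99.5 and 96.2 percentile in controls and at the 92.3, 93.6, 77.8, 96.0 and 88.7 percentile in K27M. These ranks are taken in lists of different length, with 3401 to 11215 marked genes in controls and 2084 to 4117 in K27M, so they are not a measure of change. The shorter peaks of K27M were thus not weaker in fold, and the fold is relative to each library's own input and background.

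**Figure D3:**
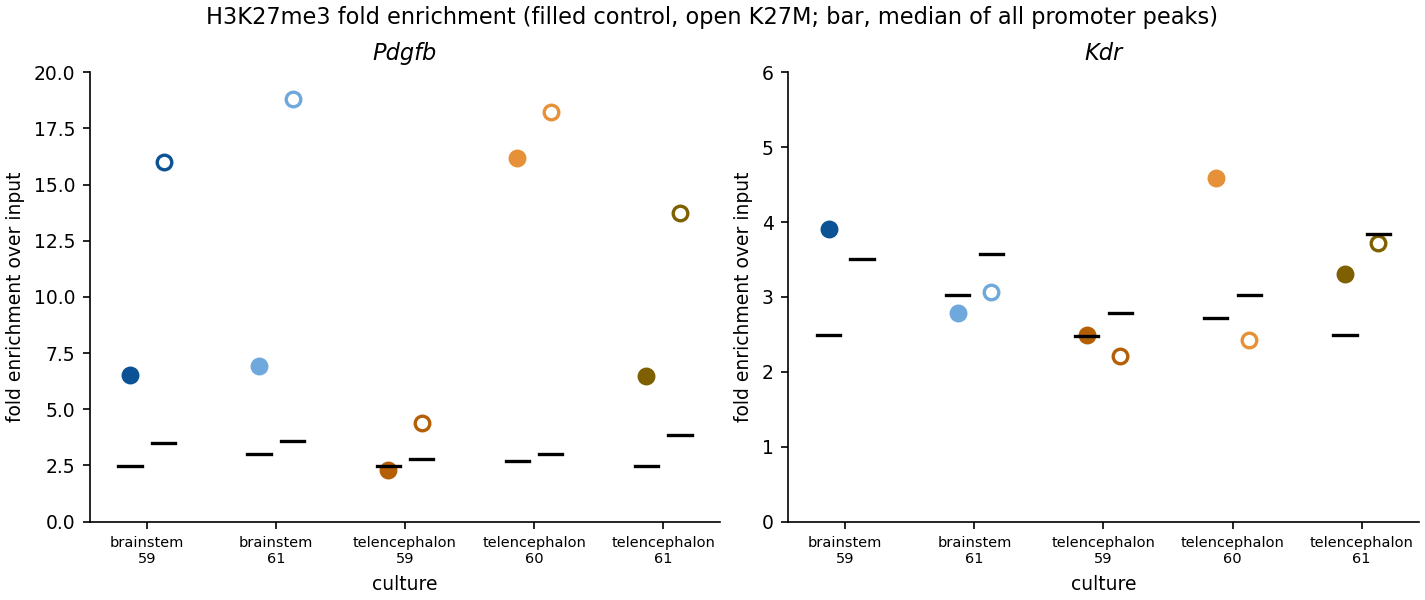
Highest H3K27me3 fold enrichment over input at the promoters of *Pdgfb* (left) and *Kdr* (right) in each culture, with filled points for control, open points for K27M, and bars at the median fold of all promoter H3K27me3 peaks in the same library. *Pdgfb* lies above the bar in every culture except telencephalon control 59 and is higher in K27M than in control in 5 of 5 pairs, whereas *Kdr* lies above the bar in 4 of 5 controls, below it in the 4 K27M cultures with a peak, and has no peak in brainstem K27M 59.

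*Pdgfa*, the chain that binds PDGFRa and drives OPC proliferation, showed the other pattern. Of its promoter (chr5:138993282-138999370, 6089 bp over 7 windows, shared with the gene 6330403L08Rik), 1580 and 924 bp were in H3K27me3 peaks in brainstem controls 59 and 61 and 1171, 3670 and 2419 bp in telencephalon controls 59, 60 and 61. In K27M no peak was called in 4 of 5 cultures, and 1126 bp were covered in telencephalon culture 61. Coverage was lower in K27M in 5 of 5 pairs, by −28.4 ± 18.2 percentage points (SD, n = 5), although K27M culture 61 of the telencephalon exceeded the lowest control. With 5 pairs, the exact two-sided sign-flip test cannot go below p = 0.0625, the value reached here, so no gene could pass 0.05 (adjusted p = 0.497 over 14153 genes, Benjamini-Hochberg). Besides *Pdgfa*, only *Kdr* and *Met* were lower in 5 of 5 pairs among the 10 genes, that is 3 of 10, beside 10.5% of the genes tested. None of the 10 was higher in 5 of 5 pairs, beside 0.134% of the genes tested. The count of 3 was 0 with −log10 q of at least 3 (8.42% of the genes then tested), 0 with a fold of at least 3 (2.39%), 0 with equal peak numbers (11.5%) and 1, *Pdgfa*, without pairing (5.40%). The *Pdgfa* peaks sat mostly upstream: relative to the most upstream protein-coding start they ran from −3125 to −420 and from −1742 to −818 bp in the brainstem controls, and from −1800 to −629, −3434 to 974 and −2223 to 419 bp in the telencephalon controls, with a further peak in telencephalon control 60 from 3393 to 5330 bp. The only K27M peak ran from −2027 to −874 bp. H3K4me3 covered 2593 to 5369 bp of the promoter in controls and 3518 to 4825 bp in K27M, mainly downstream of that start, and between 2.38% and 53.8% of it was shared with H3K27me3 in the libraries with both.

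*Pdgfc* and *Pdgfd*, the chains that need cleavage of a CUB domain before they bind their receptors, differed in H3K27me3, which was called at *Pdgfd* in 3 control cultures and at *Pdgfc* in 1, and in no K27M culture at either. *Pdgfd* (chr9:6166584-6169660, 3077 bp) had 1226 bp in brainstem control 59 and 1987 and 1676 bp in telencephalon controls 60 and 61, and no peak in the 7 other libraries. Its mean difference was −31.8 ± 30.3 points (SD, n = 5 pairs, exact p = 0.25, adjusted p = 0.581). Its H3K4me3 peaks were short, 332 to 1196 bp, and where H3K27me3 was called they lay wholly inside it. *Pdgfc* (chr3:81034416-81038423, 4008 bp) had 515 bp of H3K27me3 in brainstem control 59 and none elsewhere. Its H3K4me3 covered 2490 and 2280 bp in brainstem controls and 1873, 2080 and 2168 bp in telencephalon controls. It was the only one of the 10 genes whose 2 groups of controls did not overlap for either mark, with the brainstem higher. This direction was found at 15.8% of the genes tested for H3K4me3, and the exact two-sided permutation test of 2 against 3 cultures gave p = 0.2, the smallest it allows (adjusted p = 1).

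**Figure D4:**
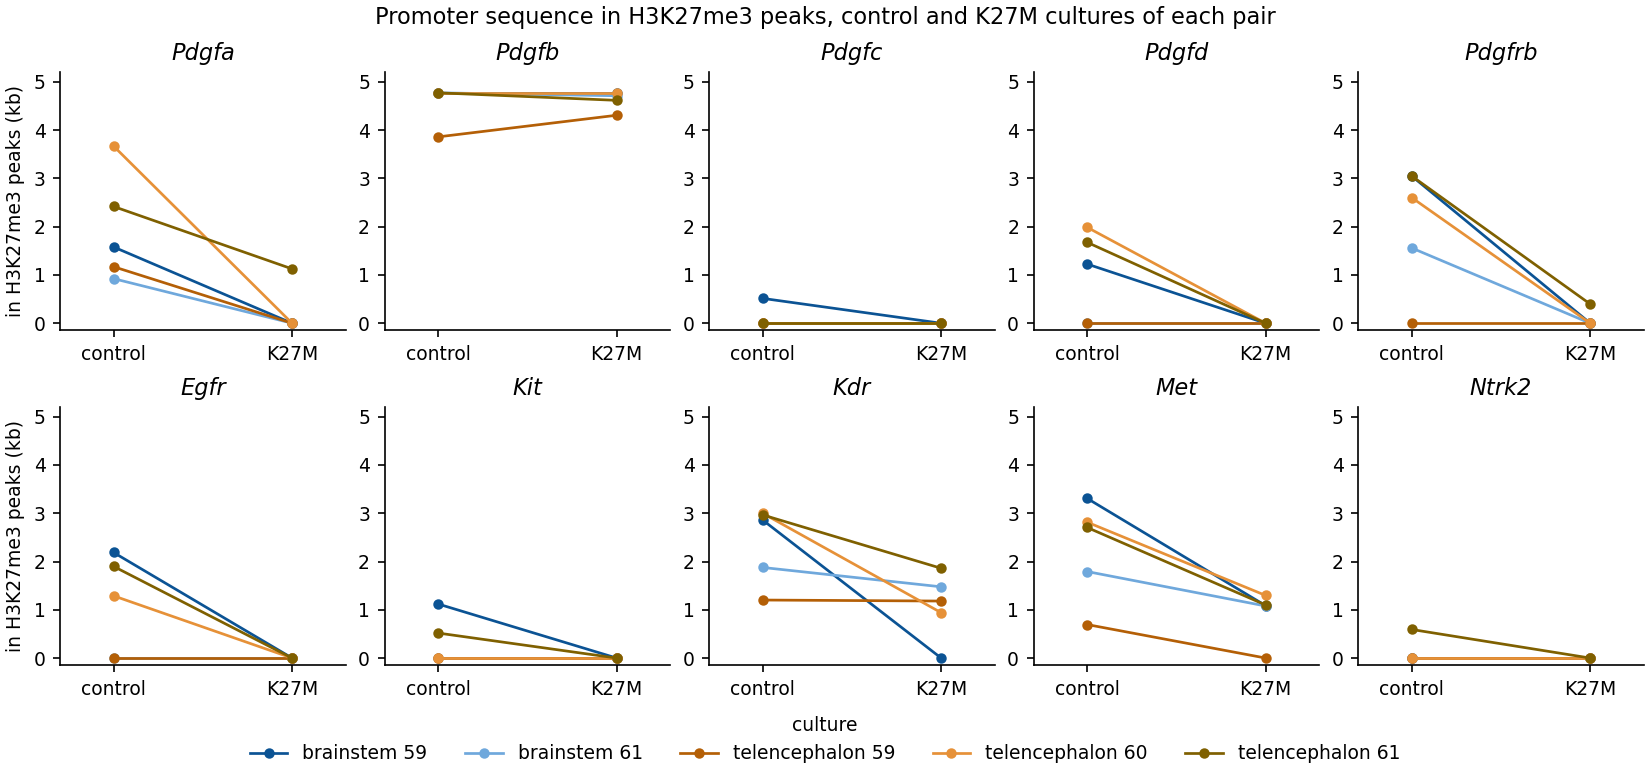
Promoter sequence in H3K27me3 peaks, in kb, for each of the 10 genes, with a line from the control to the K27M culture of each of the 5 pairs. Lines for *Pdgfa*, *Kdr* and *Met* descend in 5 of 5 pairs, *Pdgfb* stays between 3.9 and 4.8 kb, and *Pdgfd*, *Pdgfrb* and *Egfr* descend in every pair whose control had a peak.

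Of the receptors, *Pdgfrb* had H3K27me3 in 4 control cultures and 1 K27M culture and H3K4me3 in only 2 libraries. Its promoter (chr18:61043150-61046199, 3050 bp) was covered by H3K27me3 over 3050 and 1559 bp in brainstem controls 59 and 61 and over 2603 and 3050 bp in telencephalon controls 60 and 61, with no peak in telencephalon control 59. In K27M, 397 bp were covered in telencephalon culture 61 and nothing in the 4 other cultures. The mean difference was −64.7 ± 40.4 points (SD, n = 5), with 4 of 5 pairs lower and the fifth at 0 in both (exact p = 0.125, adjusted p = 0.497). It was −17.1 points with a fold of at least 3, and with equal peak numbers no library had a peak. Within the gene body, H3K27me3 peaks took up 43.0% and 9.32% in the brainstem controls and 0%, 30.4% and 41.9% in the telencephalon controls, and at most 1.36% in K27M. An H3K27me3 domain a few kb away behaved differently, and is given here although it was picked after its values were seen. Between 5 and 11 kb upstream of the *Pdgfrb* start, around the start of the homeobox gene *Cdx1* at −8951 bp, H3K27me3 peaks covered 3133 to 5659 bp in controls and 2874 to 4605 bp in K27M, so a peak was called in all 10 libraries. Its fold was 6.48, 6.29, 2.61, 9.89 and 5.85 in controls and 13.5, 14.1, 3.37, 13.9 and 11.5 in K27M. In the K27M libraries that lacked a peak at *Pdgfrb*, a peak was still called in this neighbouring domain, with folds of 3.37 to 14.1. The control peaks over the *Pdgfrb* promoter itself had lower folds, 2.41 to 3.18. Why they were not called in K27M was not tested.

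**Figure D5:**
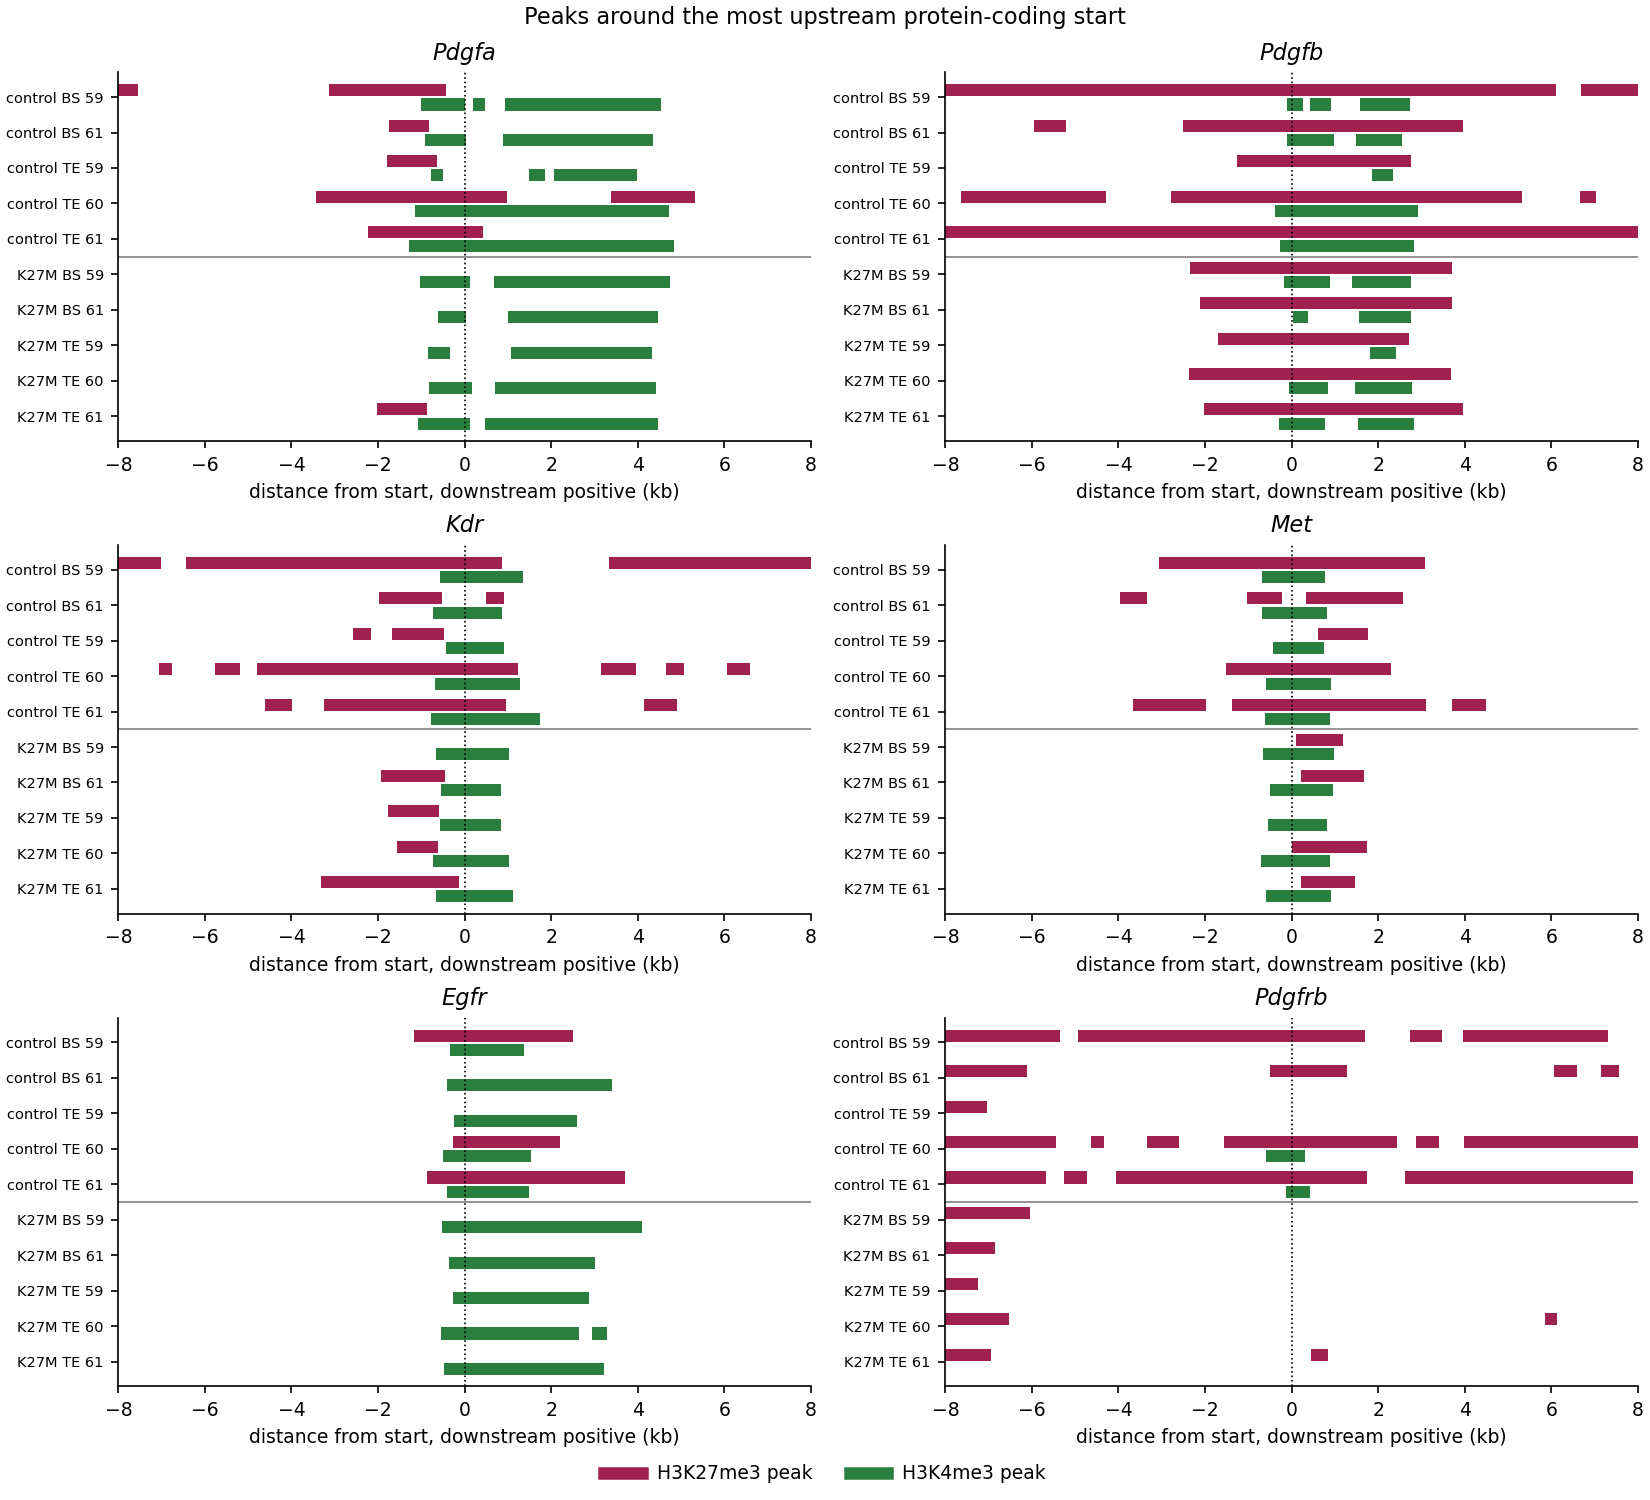
Peaks of H3K27me3 (red) and H3K4me3 (green) around 6 promoters, by distance in kb from the most upstream protein-coding start, with 1 row per culture, controls above the grey line and K27M below it. At *Pdgfa*, *Kdr*, *Met*, *Egfr* and the *Pdgfrb* start, red bars are longer in most controls and shorter or missing in K27M. At *Pdgfb* a long red bar remains in every K27M row, and the domain upstream of *Pdgfrb* shows at the left edge of every row. Red bars of K27M lie upstream of the start at *Kdr* and downstream of it at *Met*. At *Egfr* the green bars reach further downstream in the rows without red.

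*Kdr* and *Met* had H3K27me3 in 5 of 5 control and 4 of 5 K27M cultures each. At *Kdr* (chr5:75977459-75980458, 3000 bp) the covered length was 2860 and 1877 bp in brainstem controls and 1202, 3000 and 2966 bp in telencephalon controls, against 0 and 1476 bp and 1181, 940 and 1860 bp in K27M. The difference was −43.0 ± 39.1 points (SD, n = 5, exact p = 0.0625, adjusted p = 0.497), and it ranged from 21 bp in telencephalon culture 59 to the whole 2860 bp in brainstem culture 59. At *Met* (first block chr6:17461800-17465106, 12307 bp over 4 separate blocks) it was 3307 and 1792 bp, then 694, 2815 and 2705 bp in controls, against 1085 and 1078 bp, then 0, 1297 and 1099 bp in K27M, a difference of −11.0 ± 5.28 points (SD, n = 5, exact p = 0.0625, adjusted p = 0.497). The percentage for *Met* is small because 3 of its blocks, at internal starts, hold no H3K27me3. Control and K27M values overlapped at both genes through telencephalon control 59. In fold, the *Kdr* peak was 3.90 and 2.78 in brainstem controls and 2.50, 4.59 and 3.30 in telencephalon controls, and in K27M 3.07 in brainstem culture 61 and 2.22, 2.43 and 3.72 in the telencephalon.

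The position of what was called in K27M differed between these 2 receptors. At *Kdr*, H3K27me3 in controls ran across the start in 3 cultures, for example from −6432 to 860 bp in brainstem control 59 and from −4792 to 1225 bp in telencephalon control 60. In brainstem control 61 and telencephalon control 59 the nearest upstream peaks ended at −516 and −482 bp, and a separate short peak in the former ran from 501 to 907 bp. In K27M all 4 peaks lay upstream of the start, ending at −444, −592, −611 and −140 bp. The H3K4me3 peak lay over the start, from −781 bp or later to 835 bp or beyond in every library. The share of *Kdr* H3K4me3 bases that were also in H3K27me3 peaks was 91.1% and 35.8% in brainstem controls and 0%, 100% and 98.1% in telencephalon controls, and 6.53%, 0%, 6.28% and 31.5% in the K27M cultures with both marks. At *Met*, the 4 K27M peaks began 10 to 229 bp downstream of the start and reached 1194 to 1753 bp, while 3 control peaks crossed it and those of brainstem control 61 and telencephalon control 59 began at 337 and 613 bp on that side. There, 46.9% to 55.1% of the H3K4me3 bases were shared in K27M, against 10.9% to 100% in controls. Beside *Kdr*, the interval from the *Kit* start to the *Kdr* start (chr5:75574916-75978458, 404 kb) held 11.2 and 1.41 kb of H3K27me3 peaks in brainstem controls and 0, 6.67 and 4.43 kb in telencephalon controls, and none in 5 of 5 K27M cultures (mean difference −4.74 ± 4.44 kb, SD, n = 5 pairs). H3K4me3 in the same interval covered 2.70 to 5.32 kb in controls and 3.41 to 4.47 kb in K27M. The interval ends at the *Kdr* start, so the K27M H3K27me3 peaks upstream of that start lie outside it. Over the genome, H3K27me3 peaks covered 26.5 to 152 Mb in controls and 13.3 to 41.4 Mb in K27M, less in each K27M culture than in its control. No other intervals were counted, so the absence in K27M cannot be called particular to this one.

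*Egfr* had H3K27me3 in controls only. Over its promoter (first block chr11:16750203-16753229, 9027 bp in 3 blocks) 2187 bp were covered in brainstem control 59, 1289 bp in telencephalon control 60 and 1899 bp in telencephalon control 61, and no peak was called in brainstem control 61, telencephalon control 59 or any K27M culture. The difference was −11.9 ± 11.4 points (SD, n = 5 pairs, exact p = 0.25, adjusted p = 0.581). H3K4me3 at *Egfr* was 1364 and 1433 bp in brainstem controls and 1270, 1529 and 1427 bp in telencephalon controls, against 1548 and 1648 bp and 1299, 1981 and 1501 bp in K27M. It was higher in K27M in 5 of 5 pairs, the only one of the 10 genes for which this held, beside 5.23% of the 20007 genes tested. None was lower in H3K4me3 in 5 of 5 pairs, beside 0.650%. In the first block alone, which holds the main start, *Egfr* was higher in 4 of 5 pairs and lower in brainstem pair 61 (1378 bp in K27M against 1433 bp), where a peak of 270 bp at an internal start made up the difference. The count of 1 was also 0 with the best-covered window, with −log10 q or fold of at least 3, and without pairing. The size over all 3 blocks was 2.11 ± 1.83 points (SD, n = 5, exact p = 0.0625, adjusted p = 0.869), and control and K27M ranges overlapped. In telencephalon K27M 60 a further peak of 417 bp lay at an internal start. The first block there held 1564 bp, against 1529 bp in its control. The size is thus not a measure of the main start alone. Beyond the promoter window, which ends 1000 bp downstream, the main H3K4me3 peak reached 1381 bp downstream of the start in brainstem control 59 and 1542 and 1490 bp in telencephalon controls 60 and 61. It reached 3400 bp in brainstem control 61 and 2601 bp in telencephalon control 59, and in K27M 4103 and 3019 bp in the brainstem and 2876, 2640 and 3223 bp in the telencephalon. The 3 libraries with the short peak were the 3 that had an H3K27me3 peak at *Egfr*. This extent was looked at after the peaks had been seen and was not tested.

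*Kit* and *Ntrk2* were nearly free of H3K27me3. *Kit*, the receptor of stem cell factor (first block chr5:75572916-75575954, 18138 bp in 6 blocks), had 1120 bp in brainstem control 59 and 518 bp in telencephalon control 61. *Ntrk2* (first block chr13:58804569-58809690, 11122 bp in 3 blocks) had 592 bp in telencephalon control 61 alone. These peaks were weak, with folds of 2.15, 1.96 and 2.02, and the *Kit* and *Ntrk2* peaks of telencephalon control 61, the library with most peaks, ranked at the 2.45 and 5.83 percentile of its promoter peaks. No K27M culture had a peak at either gene. H3K4me3 was broad at *Ntrk2*, with 3127 to 3880 bp in controls and 3232 to 3618 bp in K27M, and covered 1494 to 1787 and 1509 to 1727 bp at *Kit*. *Kit*, *Ntrk2* and *Pdgfc* were thus the genes with H3K4me3 in all 10 libraries and H3K27me3 in at most 2.

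Promoter states were also assigned from consensus peaks, which require overlapping peaks in at least 2 cultures of a group and a combined p-value under a fixed limit. In brainstem controls 3 of the 10 genes were bivalent, *Pdgfb*, *Kdr* and *Met*, beside 4.59% of all genes and 9.28% of protein-coding genes, 6 had H3K4me3 only, and *Pdgfrb* had neither mark, since its 2 H3K27me3 peaks did not reach the combined limit. The H3K27me3 peaks of *Pdgfa* in the 2 brainstem controls did not reach it either. In telencephalon controls 6 were bivalent, *Pdgfa*, *Pdgfb*, *Pdgfrb*, *Egfr*, *Kdr* and *Met*, beside 7.30% of all and 14.4% of protein-coding genes, and the 4 others had H3K4me3 only. In brainstem K27M *Pdgfb* and *Met* were bivalent (3.04% of all and 6.14% of protein-coding genes), and in telencephalon K27M *Pdgfb*, *Kdr* and *Met* (3.53% and 6.91%). Of the bivalent genes, *Kdr* in the brainstem and *Pdgfa* and *Egfr* in the telencephalon had H3K4me3 only in K27M, and *Pdgfrb* in the telencephalon had neither mark. That is 1 of 3 and 3 of 6 genes, beside 39.2% and 52.4% of all genes bivalent in the controls of each region. Where both marks had to be called in each control culture separately, *Pdgfa*, *Pdgfb*, *Kdr* and *Met* were bivalent in both regions. *Kdr* was not bivalent in brainstem controls with −log10 q or fold of at least 3 or with equal peak numbers, and *Pdgfrb* and *Egfr* were not in telencephalon controls with the latter 2 settings. The brainstem consensus rests on 2 cultures and the telencephalon consensus on 3. The H3K4me3 behind the bivalent state of *Pdgfrb* came only from telencephalon controls 60 and 61, the libraries with most duplicate reads by share.

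Between regions, none of the 10 genes had H3K27me3 coverage that separated the 2 brainstem from the 3 telencephalon controls, beside 2.45% of 14107 genes with the brainstem higher and 0.879% with the telencephalon higher. No gene reached an unadjusted p under 0.05, since 0.2 is the smallest value possible. An H3K27me3 peak in every brainstem control was called at 5 of the 10 genes, *Pdgfa*, *Pdgfb*, *Pdgfrb*, *Kdr* and *Met*, beside 9.42% of all genes. *Pdgfa* and *Pdgfrb* had none in either brainstem K27M culture, which is 2 of those 5 beside 35.0% of all such genes, and 2 of 10 beside 3.29% of all genes. In the telencephalon, 4 of the 10 had a peak in every control, *Pdgfa*, *Pdgfb*, *Kdr* and *Met*, beside 5.83% of all genes. None of these 4 lacked a peak in all telencephalon K27M cultures, beside 17.8% of all such genes and 1.04% of all genes. This regional picture depended on telencephalon culture 59. Without it, *Pdgfa*, *Pdgfd* and *Kdr* had more H3K27me3 in both telencephalon controls than in both brainstem controls (19.3% of genes tested), and 7 of the 10 genes, all but *Pdgfc*, *Pdgfd* and *Egfr*, had more H3K4me3 (37.0%). Both of those telencephalon H3K4me3 libraries had the largest shares of duplicate reads, whose part in this count was not tested. Leaving out a brainstem culture leaves 1 brainstem library with no spread. Against brainstem control 59 alone, the 3 telencephalon controls were all lower in H3K27me3 at *Pdgfc*, *Egfr*, *Kit* and *Met* (32.8%), and against brainstem control 61 alone they were all higher at *Pdgfa* (4.58%).

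Other genes of the same pathways gave a background for these values. Of 17 other ligands of the receptors, 12 had a promoter H3K27me3 peak in some library, and 3 were lower in K27M in 5 of 5 pairs, *Bdnf* (−14.5 points), *Ntf3* (−16.6) and *Egf* (−14.9), with a median over the list of −11.6 points and none higher. Over the 10 genes the median was −11.4. The neurotrophins *Bdnf*, *Ntf3* and *Ntf5* had H3K27me3 in all 10 libraries, unlike *Ntrk2*, the receptor of the first and last of them. *Vegfa*, *Egf* and *Ereg* had it in both brainstem controls and in no brainstem K27M culture, as did the receptors *Tyro3* and *Ror2*. Of 32 other receptor tyrosine kinases and co-receptors, 19 had a peak in some library, 9 had one in all 10 libraries, and 2, *Flt3* and *Ror2*, were lower in 5 of 5 pairs (median −1.53 points). *Pdgfra*, the receptor used to isolate the cells, had H3K4me3 in all 10 libraries and H3K27me3 in none, in contrast to *Pdgfrb*. Of 19 signalling and feedback genes downstream of the receptors, 18 had H3K27me3 in no library, 18 had H3K4me3 in all 10, and *Cbl* was higher in H3K4me3 in 5 of 5 pairs.

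By presence of peaks over the 20 libraries, *Pdgfb* was identical to *Bdnf*, *Erbb2* and *Flt1*, and to 794 genes in all. *Pdgfd* and *Egfr* were identical to each other and to *Areg*, *Hbegf* and *Kitl*, among 656 genes. *Pdgfc* matched *Ptpn11* and *Ror1*, and *Kit* matched the co-receptor *Nrp1*. *Kdr* and *Met* each differed from *Bdnf* and *Erbb2* in 1 library, and *Pdgfa* from *Ror2* in 1. *Pdgfrb* shared its pattern with 1 other gene, and among the listed genes *Mst1r* came nearest, with 2 libraries different.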

How the data were processed

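ChIP-seq for H3K27me3 and H3K4me3 was analysed in 20 libraries of cultured mouse OPCs, and the 20 input libraries entered only through the authors' peak calls. Per the labels and the study's methods, reads had been mapped by the authors onto the mm10 genome (BWA 0.7.17-r1188), ENCODE blacklisted regions left out, and peaks called with MACS2 2.2.7.1 for each library against its own input. H3K27me3 was called in broad mode at a cutoff of 0.1. The Drosophila spike-in was not used in the peak calls, so levels are relative within a library. The deposited peak lists give positions, a fold enrichment over input (a ratio), and −log10 p and −log10 q, all as the authors' caller wrote them. The deposited score column was not used. No read counts are in the lists, and the number of peaks is not a measure of depth. The study reports read totals per library. By these, telencephalon control 59, with the fewest H3K27me3 peaks among controls, had the most reads of that mark.

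Promoters were windows that reached 2000 bp before and 1000 bp past every transcript start in the GENCODE mouse annotation for GRCm38, merged per gene, and a gene counted as marked with at least 1 bp of overlap. The promoter sequence in peaks was compared in 5 pairs with a two-sided exact sign-flip test (smallest possible p 0.0625) and between 2 and 3 controls with an exact permutation test (smallest possible p 0.2), each adjusted by the Benjamini-Hochberg method over all genes tested. At an unadjusted p under 0.05, 0 genes passed in either comparison. Consensus peaks followed the study's rule, rewritten here, with at least 2 cultures and limits of 1e-04 (weak) and 1e-08 (stringent) for H3K27me3 and 1e-06 and 1e-10 for H3K4me3. Pairs came from the matched cultures of the study. The correlation of deviations from group means was 0.63, 0.33 and 0.39 for H3K4me3 in telencephalon cultures 59, 60 and 61, and −0.06 in both brainstem cultures. For H3K27me3 it was 0.47, 0.25, −0.19 and, in the brainstem, −0.04. Unmatched telencephalon cultures gave −0.55 to 0.38 for H3K4me3 and −0.48 to 0.30 for H3K27me3. The highest H3K27me3 value among these, of control 61 with K27M 60, exceeded the matched values of cultures 60 and 61. For H3K4me3 the same combination exceeded the matched value of culture 60. With 2 brainstem cultures the deviations mirror each other, so both brainstem cultures give the same value for a mark. The pairing thus has no support from these correlations in the brainstem. In the telencephalon, only culture 59 had a matched value above every unmatched one in both marks.

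The genes and the lists of ligands, receptors, signalling genes and markers were chosen with earlier results of these data known. From the lists, genes were named where every control and no K27M culture of a region, or the reverse, had an H3K27me3 peak, where a count was 5 or fewer, or where their pattern was nearest to one of the 10 genes (up to 3, ties in alphabetical order). The *Cdx1* region, the downstream ends of the *Egfr* peaks and other peak positions were chosen after their values were seen. Alternatives were −log10 q and fold minimums, equal peak numbers, narrower or protein-coding windows, a larger overlap, no pairing and leaving out each culture. The code was tested on simulated data and used Python 3.11.15, numpy 2.4.6, pandas 2.3.3 and scipy 1.17.1.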

Additional observations from a re-analysis of the deposited data

Results flagged for a closer look

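*Pdgfc* H3K4me3 moved in opposite directions in the regions. In the brainstem pairs the promoter sequence in H3K4me3 peaks was lower in K27M in 2 of 2 (2490 to 2392 bp in culture 59 and 2280 to 2002 bp in culture 61), and in the telencephalon pairs it was higher in 3 of 3 (1873 to 2293, 2080 to 2399 and 2168 to 2331 bp). The brainstem difference minus the telencephalon difference was −12.2 percentage points, and this difference was not tested. The 10 genes were searched in both marks for such opposite directions, and this was the only case found. The share of all genes with the same pattern was not counted, so it cannot be called particular to *Pdgfc*. Groups of 2 and 3 cultures are too small to single out 1 culture by its distance from the others.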

How the results depend on the processing

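The number of the 10 genes with less promoter H3K27me3 in K27M in 5 of 5 pairs was 3, and it was 0 with −log10 q of at least 3, 0 with a fold of at least 3, 0 with equal peak numbers and 1 (*Pdgfa*) with no replicate block, where samples were not paired. Leaving out 1 culture gave 3 to 4, and 4, with *Pdgfrb*, without telencephalon culture 59. Over all genes the count was 1486 of 14153, and it was 715 of 8495, 156 of 6535, 646 of 5634, 764 of 14153 and 3168 of 14113 under those 5 settings in that order, and 922 of 7713 with protein-coding starts. For H3K4me3 the number higher in 5 of 5 pairs was 1 (*Egfr*), and 0 with the q minimum, the fold minimum, the best-covered window or no replicate block. Leaving out 1 culture gave 1 to 1. Over all genes it was 1046 of 20007, with 280 of 20007 without the block and 4913 of 19966 without brainstem culture 61. Without the block the smallest adjusted p of the 10 genes was 0.308 for H3K27me3 and 1 for H3K4me3 (exact permutation within regions). The mean difference in the number of genes with H3K27me3 was −3.8, and −1.4 with the fold minimum, −1.6 with equal peak numbers and −4.25 to −3 without 1 culture. Between regions, 0 genes were separated by H3K27me3 and 0 to 4 without 1 culture, and 1 by H3K4me3, 0 with protein-coding starts and 1 to 8 without 1 culture. Of bivalent genes there were 3 in brainstem controls and 6 in telencephalon controls, with 2 of the former (without *Kdr*) under the q minimum, the fold minimum and equal peak numbers, and 4 of the latter (without *Pdgfrb* and *Egfr*) under the fold minimum and equal peak numbers, and 4 to 6 without 1 culture. No brainstem consensus could be made without a brainstem culture, since 2 are needed. The Kit to Kdr difference was −5.92 to −3.13 kb for H3K27me3 and −0.176 to 0.217 kb for H3K4me3 without 1 culture. Differences that changed sign are given in percentage points, none with a test past the threshold. Without 1 culture, the *Pdgfb* H3K27me3 difference was −1.14 to 2.03, negative without telencephalon culture 59, and it was 17.1 with the fold minimum. The H3K4me3 difference was −6.99 to 0.38 for *Pdgfa* (positive without telencephalon culture 60, and 4.61 with the best-covered window). It was −2.54 to 2.10 for *Pdgfd* (positive at 1.23, 0.016 and 2.10 without brainstem culture 61 and telencephalon cultures 60 and 61), and −1.97 to 0.46 for *Kdr* (positive without brainstem culture 61, and 8.04 with the fold minimum). The cause was not tested. Since no setting could bring a paired test past the threshold, only directions can be compared. *Pdgfc*, *Pdgfd*, *Kit* and *Ntrk2* had no H3K27me3 peak left, and so no difference, under the q minimum, the fold minimum or equal peak numbers. The other differences did not change sign.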
